A study of Mus musculus with 4 samples.

Results

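The genes described here are 10 receptor tyrosine kinases that are often studied in sarcomas: Pdgfra, Pdgfrb, Kit, Met, Egfr, Erbb2, Fgfr1, Fgfr2, Fgfr4 and Igf1r. They were chosen by name, and all 10 were found among the 56691 genes of the deposited table. Receptor tyrosine kinases sit in the cell membrane, bind a growth factor outside the cell and then phosphorylate each other inside it. Adaptor proteins read these marks and pass the signal to the ERK and PI3K pathways, while ubiquitin ligases, phosphatases and ERK-induced inhibitors end it. In mesenchymal tissue the PDGF, FGF and IGF receptors carry growth signals, and mutated or amplified forms of several members are known in human sarcomas.

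The samples were bulk tissue from spontaneous sarcomas of heterozygous W/+ mice, whose labelled genotype is p53R282W/+, so that the mice were born with the mutant allele beside a normal one. The study calls the mouse allele R279W, with R282W as its human counterpart. Whether a sarcoma kept the normal allele was not tested. ATO (arsenic trioxide) had been given to the mice of 2 sarcomas, called ATO 1 and ATO 2, and the 2 sarcomas labelled PBS, called PBS 1 and PBS 2, came from mice without it. Ages at sampling and the histological kind of each sarcoma are not given in the labels, and the study describes more than 1 kind of sarcoma in these mice. In the study, ATO was given in the drinking water until death, and treated mice with sarcomas survived longer than untreated ones. ATO 1 and ATO 2 may thus come from older mice, and age cannot be told apart from treatment here. The labels of all 4 samples also describe cell culture in which insulin followed dexamethasone and isobutylmethylxanthine, agents used to induce fat cells, and they name another library kit than the study's methods do. The study's methods describe RNA taken from tumor tissue and name no such culture for it. Whether the labelled protocol was applied at any step is not given in the sources used here. It bears on how the adipocyte, insulin and IGF values below can be read. Total counts were 18134000 in ATO 1, 15259695 in ATO 2, 17465090 in PBS 1 and 17971675 in PBS 2. The mitochondrial share was 2.59% in ATO 1, 14.7% in ATO 2, 1.98% in PBS 1 and 1.99% in PBS 2, so ATO 2 stood apart from the other libraries.

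The question for each receptor was whether its transcript differed between ATO and PBS sarcomas. All 10 receptors passed the filter on low counts, and 17188 genes were tested with edgeR's quasi-likelihood test. With Benjamini-Hochberg adjustment over all of them, 0 of the 10 receptors and 0 of the 17188 genes (0%) had an adjusted p under 0.05, and the smallest adjusted p of any gene was 0.570. At an unadjusted p under 0.05, 0 of the 10 receptors passed, against 1463 genes (8.51%), of which 935 (5.44% of those tested) were higher and 528 (3.07%) lower in ATO sarcomas. DESeq2 called 716 genes at the adjusted threshold, and again 0 of the 10 receptors. In CPM (counts scaled to library size), normalized by TMM (trimmed mean of M-values), both ATO sarcomas lay below both PBS sarcomas for 2 receptors, Pdgfrb and Fgfr1, against 3476 of all genes tested (20.2%). The same 2 receptors were found with deposited FPKM, against 29.6% of all genes. Both ATO sarcomas lay above both PBS sarcomas for 0 receptors, against 3386 genes (19.7%, or 12.8% with FPKM). The median log2 fold change (ATO over PBS) was -0.11 over the receptors and -0.02 over all genes tested. Markers of other tissues separated the same groups: for 8 of 8 skeletal muscle markers and 5 of 5 adipocyte markers both ATO sarcomas lay above both PBS sarcomas, in CPM and in FPKM, and 7 and 5 of them had an unadjusted edgeR p under 0.05. Their part in the differences of Pdgfrb, Fgfr1 and the genes below was not tested. With 2 sarcomas in each group, an exact permutation test cannot give a p below 0.333 for any single gene.

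**Figure D1:**
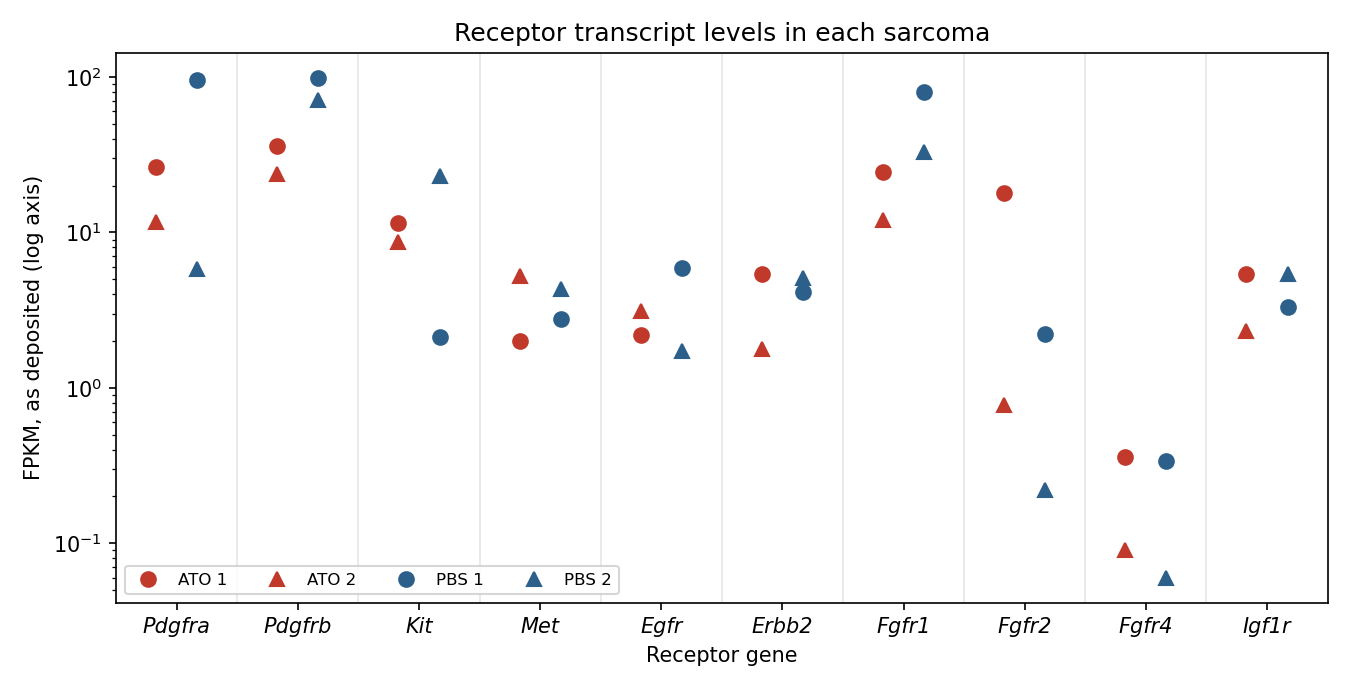
Deposited FPKM (counts scaled to exon length and library size) of the 10 receptors on a log axis, with 1 point for each sarcoma, ATO in red and PBS in blue, circles for replicate 1 and triangles for replicate 2. Both ATO points lie under both PBS points for Pdgfrb and Fgfr1, and the groups overlap for the other 8 receptors.

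Pdgfra encodes PDGF receptor alpha, a receptor of mesenchymal progenitors and fibroblasts (GRCm38, chr5:75152292-75198215, plus strand). Its FPKM was 26.5 in ATO 1, 11.7 in ATO 2, 96.2 in PBS 1 and 5.84 in PBS 2. The highest and the lowest of the 4 sarcomas were both PBS, and the ATO sarcomas lay between them. In TMM-scaled CPM the group means were 204 ± 85.7 (SD, n = 2) for ATO and 469 ± 589 (SD, n = 2) for PBS, and PBS 1 was 16.7 times PBS 2. The edgeR log2 fold change was -1.20 (SE 1.30, 95% confidence interval -4.62 to 2.21, adjusted p = 0.824). Its direction rested on PBS 1: without that sarcoma the log2 fold change was 1.94, and without PBS 2 it was -2.13.

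Pdgfrb encodes PDGF receptor beta, which pericytes, smooth muscle cells and fibroblasts carry (GRCm38, chr18:61045150-61085061, plus strand). Its FPKM was 36.2 in ATO 1, 23.7 in ATO 2, 98.6 in PBS 1 and 70.8 in PBS 2. Both PBS sarcomas were above both ATO sarcomas, and it had the highest FPKM of the 10 receptors in each of the 4 sarcomas. Mean TMM-scaled CPM was 178 ± 27.2 (SD, n = 2) for the ATO sarcomas, against 424 ± 103 (SD, n = 2) for PBS. In edgeR, the log2 fold change was -1.25 (SE 0.48, 95% confidence interval -2.51 to 0.01, adjusted p = 0.585), and the interval just included 0. The direction was the same whichever sarcoma was left out, between -1.48 and -0.98. Because the samples are bulk tissue, fewer cells of a type and less RNA per cell cannot be told apart here or in any result below.

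The FPKM of Pdgfrb was 1.37 times that of Pdgfra in ATO 1, 2.03 times in ATO 2, 1.03 times in PBS 1 and 12.1 times in PBS 2. Near-equal levels were thus found in PBS 1, while PBS 2 held almost only Pdgfrb.

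Kit encodes the receptor of stem cell factor, which mast cells, melanocytes, germ cells and interstitial cells of Cajal need (GRCm38, chr5:75574916-75656722, plus strand). Its FPKM was 11.4 in ATO 1, 8.63 in ATO 2, 2.13 in PBS 1 and 23.2 in PBS 2. The PBS sarcomas again held the highest and the lowest value, in the opposite order to Pdgfra, and the ATO sarcomas were close to each other. Group means in TMM-scaled CPM were 97.6 ± 5.13 (SD, n = 2) for ATO and 102 ± 120 (SD, n = 2) for PBS, and PBS 2 was 10.7 times PBS 1. This gave an edgeR log2 fold change of -0.07 (SE 1.08, adjusted p = 0.992). Without PBS 2 it was 2.48 and without PBS 1 it was -0.94, so the sign depended on which PBS sarcoma was kept.

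Kit lies 376.7 kb downstream of Pdgfra on chromosome 5, with no other tested gene between them. The FPKM ratio of Kit to Pdgfra was 0.431 in ATO 1, 0.739 in ATO 2, 0.0221 in PBS 1 and 3.96 in PBS 2. PBS 2 was the one sarcoma with more Kit than Pdgfra.

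Fgfr1 encodes the FGF receptor most widely found in mesenchymal cells (GRCm38, chr8:25513654-25575718, plus strand). Its FPKM was 24.3 in ATO 1, 11.9 in ATO 2, 80.6 in PBS 1 and 32.8 in PBS 2. Both PBS sarcomas were above both ATO sarcomas, though PBS 2 lay nearer to ATO 1 than to PBS 1. Mean TMM-scaled CPM was 192 ± 67.2 (SD, n = 2) for the ATO sarcomas, against 512 ± 310 (SD, n = 2) for PBS. By edgeR its log2 fold change was -1.42 (SE 0.67, 95% confidence interval -3.18 to 0.35, adjusted p = 0.624). It was between -1.94 and -0.61 when single sarcomas were dropped.

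Fgfr2 encodes an FGF receptor of epithelia and of the osteoblast lineage (GRCm38, chr7:130162451-133123350, minus strand). Its FPKM was 17.9 in ATO 1, 0.77 in ATO 2, 2.22 in PBS 1 and 0.22 in PBS 2, from 3347, 121, 400 and 41 counts. ATO 1 stood far above the other 3 sarcomas, and ATO 2 lay between the PBS sarcomas, so the groups overlapped. The highest TMM-scaled CPM was 89.0 times the lowest, the widest range of the 10 receptors. ATO against PBS, the edgeR log2 fold change was 3.07 (SE 1.73, 95% confidence interval -1.47 to 7.61, adjusted p = 0.668), and without ATO 1 it was -0.28.

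Fgfr4 encodes an FGF receptor known from liver and from developing and regenerating muscle (GRCm38, chr13:55152640-55168759, plus strand). Its FPKM was 0.36 in ATO 1, 0.09 in ATO 2, 0.34 in PBS 1 and 0.06 in PBS 2, from 23, 5, 21 and 4 counts. It had the lowest FPKM of the 10 receptors in every sarcoma, and replicate 1 of each group held most of its counts. Between the lowest counts a difference was not detectable at this depth, and the edgeR log2 fold change was 0.37 (SE 1.13, adjusted p = 0.946), or between -0.71 and 2.02 when single sarcomas were dropped.

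Fgfr1 exceeded Fgfr2 in FPKM in all 4 sarcomas, 1.36 times in ATO 1, 15.5 times in ATO 2, 36.3 times in PBS 1 and 149 times in PBS 2. ATO 1 was the sarcoma in which the levels came close.

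Met encodes the receptor of hepatocyte growth factor (GRCm38, chr6:17463800-17573980, plus strand). Its FPKM was 1.99 in ATO 1, 5.22 in ATO 2, 2.77 in PBS 1 and 4.34 in PBS 2. Each group had a sarcoma near the bottom and one near the top of this range, and ATO 1 and ATO 2 marked its ends. With edgeR, its log2 fold change was 0.37 (SE 0.69, adjusted p = 0.903), and it was between -0.70, without ATO 2, and 0.97 when single sarcomas were dropped.

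Egfr encodes the epidermal growth factor receptor (GRCm38, chr11:16752203-16918158, plus strand), with an FPKM of 2.19 in ATO 1, 3.12 in ATO 2, 5.93 in PBS 1 and 1.73 in PBS 2. As for Pdgfra, PBS 1 was highest and PBS 2 lowest, and the edgeR log2 fold change was -0.23 (SE 0.72, adjusted p = 0.948). Without PBS 1 the value was 0.93, and without PBS 2 it was -0.87.

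Erbb2 encodes the partner receptor of the EGF receptor family, which binds no ligand by itself (GRCm38, chr11:98412470-98437716, plus strand). Its FPKM was 5.40 in ATO 1, 1.77 in ATO 2, 4.11 in PBS 1 and 5.08 in PBS 2. ATO 2 was the low sarcoma, and the other 3 were close together. The edgeR log2 fold change was -0.15 (SE 0.59, adjusted p = 0.958), and without ATO 2 it was 0.37.

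Igf1r encodes the receptor of the insulin-like growth factors (GRCm38, chr7:67952827-68233668, plus strand), with an FPKM of 5.38 in ATO 1, 2.31 in ATO 2, 3.32 in PBS 1 and 5.38 in PBS 2. The groups overlapped, and its highest TMM-scaled CPM was 1.89 times its lowest, the narrowest range of the 10 receptors. In edgeR, the log2 fold change was 0.05 (SE 0.50, 95% confidence interval -1.27 to 1.37, adjusted p = 0.986). It was between -0.50 and 0.45 when single sarcomas were dropped. Its relative Insr, the insulin receptor, had more FPKM than Igf1r in every sarcoma, 2.42 times in ATO 1, 2.97 in ATO 2, 1.45 in PBS 1 and 1.18 in PBS 2.

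**Figure D2:**
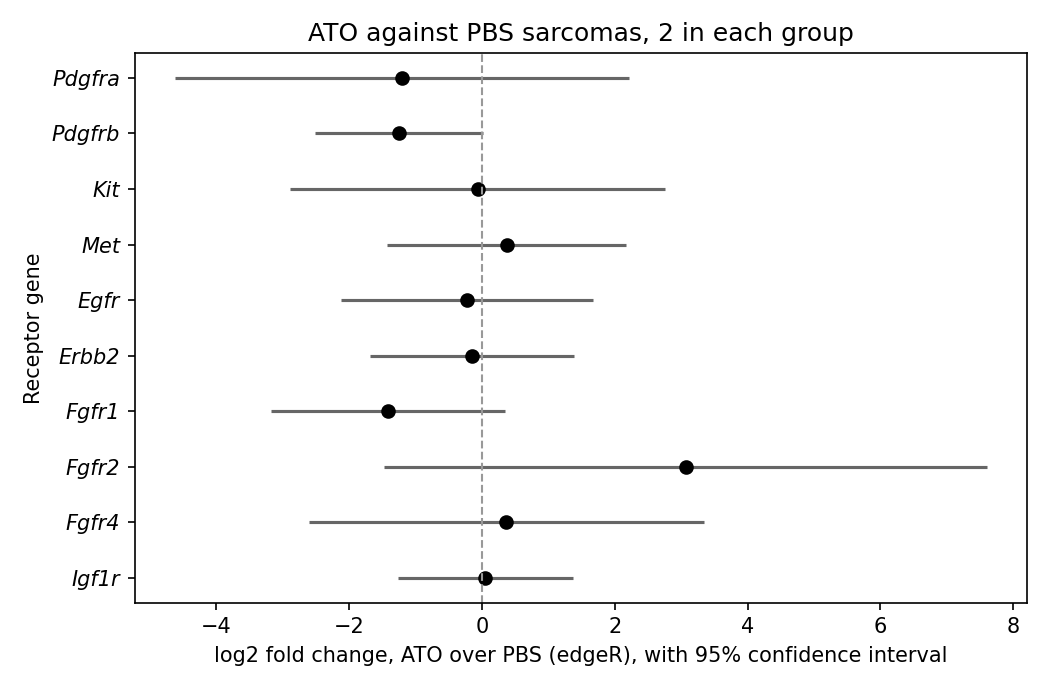
The edgeR log2 fold change of each receptor, ATO over PBS, as a point with its 95% confidence interval as a line, and a dashed line at 0. Every interval includes 0, that of Pdgfrb by the smallest margin, and those of Fgfr2 and Pdgfra are the widest of the plot.

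Sarcomas of the same group differed widely in several receptors. The median absolute log2 ratio of PBS 1 to PBS 2 was 1.56 over the 10 receptors and 0.64 over all genes tested, in TMM-scaled CPM. Between ATO 1 and ATO 2 it was 0.90 over the receptors and 0.68 over all genes. The 38 other receptor tyrosine kinases tested had a wider spread than these receptors, 1.77 between the PBS and 1.13 between the ATO sarcomas. No test was made of these differences.

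Among the FPKM of all 58 receptor tyrosine kinases, the 10 receptors held 29.3% in ATO 1, 21.3% in ATO 2, 39.5% in PBS 1 and 17.03% in PBS 2. In PBS 1 that share came from Pdgfrb with 13.2%, Pdgfra with 12.8% and Fgfr1 with 10.7%. Ptk7, a kinase outside the 10 receptors, lay between Pdgfrb and Pdgfra in PBS 1, at 98.0 FPKM. In PBS 2 the highest kinases by FPKM were all outside the 10 receptors. They were Ephb4 (an ephrin receptor of veins) at 120, Tek at 119, Tie1 at 118 and Kdr at 89.5, the last 3 being receptors of blood vessel endothelium. In ATO 1 and ATO 2 the highest was Csf1r, the macrophage colony-stimulating factor receptor, at 76.1 and 61.7, followed by Axl at 48.1 and 28.4.

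Of the 48 other receptor tyrosine kinases, 38 were tested, and 3 were higher and 3 lower in ATO sarcomas at an unadjusted edgeR p under 0.05, with 0 past the adjusted threshold. Over all genes tested those shares were 5.44% higher and 3.07% lower. The median log2 fold change of the 38 kinases was -0.50. In TMM-scaled CPM both ATO sarcomas lay above both PBS sarcomas for 6 of the 38 and below for 7, against 19.7% and 20.2% of all genes. In FPKM it was 4 above and 9 below, against 12.8% and 29.6%. The lower ones were Lmtk3, a little-studied member of the family (FPKM 0.19 and 0.15 in ATO 1 and ATO 2, 5.86 and 4.33 in PBS 1 and PBS 2), Ror2, a Wnt5a receptor (0.60, 1.25, 18.4 and 3.29 in the same order), and Tyro3, a relative of Axl (0.61, 0.31, 3.40 and 1.45). The higher ones were Erbb3, the partner of Erbb2 (FPKM 0.64, 0.89, 0.21 and 0.29), Musk, the receptor that organizes the nerve-muscle synapse (3.34, 0.23, 0.14 and 0.06), and Ntrk2, a neurotrophin receptor (0.73, 6.82, 0.27 and 0.50). In all 6 the ATO and PBS values were apart, but Musk was high in ATO 1 alone and Ntrk2 in ATO 2 alone. Erbb3 was the one among them that pairs with a receptor described here, and its levels were under 1 FPKM in all 4 sarcomas.

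Of the PDGF ligands, 4 of 4 were tested and 0 had an unadjusted edgeR p under 0.05, against 8.51% of all genes. Pdgfc, a ligand of Pdgfra, had an FPKM of 8.87 in ATO 1, 3.49 in ATO 2, 22.6 in PBS 1 and 1.32 in PBS 2, the same order of sarcomas as Pdgfra itself. Pdgfb, which binds both receptors, was at 6.32, 14.4, 12.1 and 30.4 FPKM, and Pdgfa, a ligand of Pdgfra, at 16.1, 8.45, 18.06 and 24.7. Pdgfd, a ligand of Pdgfrb, was at 49.0 FPKM in ATO 1 and at 7.23, 3.36 and 7.74 in ATO 2, PBS 1 and PBS 2 (edgeR log2 fold change 2.51, adjusted p = 0.585). ATO 1 thus had far more Pdgfd than the others, while its Pdgfrb was below that of both PBS sarcomas.

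Kitl, the single ligand of Kit, had an FPKM of 34.3 in ATO 1, 11.0 in ATO 2, 7.45 in PBS 1 and 79.4 in PBS 2. Ligand and receptor had the same order of sarcomas, with PBS 2 highest and PBS 1 lowest for both. The edgeR log2 fold change of Kitl was -0.72 (SE 1.17, adjusted p = 0.888).

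Hgf, the single ligand of Met, had an FPKM of 0.20 in ATO 1, 0.47 in ATO 2, 7.35 in PBS 1 and 1.11 in PBS 2. Both ATO sarcomas were below both PBS sarcomas, and PBS 1 held most of the transcript, whereas Met was higher in ATO 2 and PBS 2 than in PBS 1. The edgeR log2 fold change of Hgf was -3.32 (SE 1.17, unadjusted p = 0.0389, adjusted p = 0.570). In its list, which adds the activators and inhibitors of Hgf, 4 of 5 genes were tested and Hgf was the 1 with an unadjusted p under 0.05, against 3.07% of all genes in that direction. Spint1, Spint2 and St14, which control the cleavage of the Hgf precursor, reached at most 11.1, 5.86 and 0.50 FPKM, Spint1 and Spint2 in PBS 2 and St14 in ATO 2.

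Of the 11 EGF family ligands, 9 were tested and 2 were higher in ATO sarcomas at an unadjusted edgeR p under 0.05, against 5.44% of all genes. Nrg4, a ligand of the Egfr relative Erbb4, had an FPKM of 0.75 in ATO 1, 7.31 in ATO 2, 0.32 in PBS 1 and 0.26 in PBS 2, and Nrg2 was under 1 FPKM in all 4. Hbegf, an Egfr ligand, was at 2.73, 0.77, 2.85 and 3.18 FPKM, and Tgfa, another, at 3.58, 0.51, 0.14 and 3.91. Ereg, one more such ligand, was at 0.01, 0.54, 2.77 and 1.44 FPKM. Hbegf, Tgfa and Ereg had different orders of sarcomas from each other and from Egfr.

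Of the 18 FGF ligands, 7 were tested and 0 had an unadjusted edgeR p under 0.05, against 8.51% of all genes. The log2 fold change was above 0 for 6 of the 7 and below 0 for 1, against 8450 of all 17188 genes above 0. Both ATO sarcomas lay above both PBS sarcomas for 3 of the 7 and below for 0, in TMM-scaled CPM and in FPKM. Over all genes those shares were 19.7% and 20.2% in CPM, and 12.8% and 29.6% in FPKM. Fgf7, a ligand of an epithelial form of Fgfr2, had the highest mean FPKM, at 3.28 in ATO 1, 6.74 in ATO 2, 5.20 in PBS 1 and 3.02 in PBS 2. Fgf2 was highest in PBS 1 at 5.14 FPKM, Fgf1 in ATO 2 at 3.89 and Fgf18 in PBS 1 at 2.60. Fgf23, a bone hormone named after its values were seen, was highest in ATO 1, as Fgfr2 was, at 4.86 FPKM against 1.08 in ATO 2, 0 in PBS 1 and 0.52 in PBS 2. Of 5 FGF co-receptors and binding proteins, 3 were tested and 1 was higher at an unadjusted edgeR p under 0.05, against 5.44% of all genes. Klb, which lets Fgfr1 and Fgfr4 respond to hormone-like FGFs, was at 0.44, 3.44, 0.16 and 0.04 FPKM in ATO 1, ATO 2, PBS 1 and PBS 2 (edgeR log2 fold change 4.64, adjusted p = 0.570). Fgfrl1, a receptor without a kinase domain, was at 18.06, 12.0, 11.0 and 5.74 FPKM, and Fgfbp3 was between 0.96 and 2.07 FPKM. Fgfbp1 had at most 5 counts.

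Of the IGF ligands and the clearance receptor, 3 of 3 were tested. Of these, 0 had an unadjusted edgeR p under 0.05, against 8.51% of all genes. Igf1 was at 5.75 FPKM in ATO 1, 11.9 in ATO 2, 7.95 in PBS 1 and 4.84 in PBS 2, and Igf2, at 2.68, 0.19, 0.03 and 0.50, was low in all but ATO 1. Igf2r, which removes Igf2, was at 16.4, 17.4, 41.1 and 16.1 FPKM and stood out in PBS 1. Of the 8 IGF binding proteins, 7 were tested. Igfbp3, the main carrier in blood, was at 105, 27.2, 159 and 1046 FPKM, so that PBS 2 lay far above the rest and both ATO sarcomas below both PBS sarcomas, and Igfbp5 was highest there too, at 146 FPKM. Igfbp4 was between 97.0 and 243 FPKM and Igfbp7 between 116 and 452. Both ATO sarcomas were below both PBS sarcomas for Igfbp3, Igfbp4 and Igfbp7, 3 of the 7 tested, in TMM-scaled CPM and in FPKM, against 20.2% and 29.6% of all genes. Igfals, which holds IGF complexes in the circulation, had 40 and 35 counts in ATO 1 and ATO 2 and 0 in both PBS sarcomas, and was the 1 gene of its list with an unadjusted edgeR p under 0.05, against 5.44% of all genes higher.

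**Figure D3:**
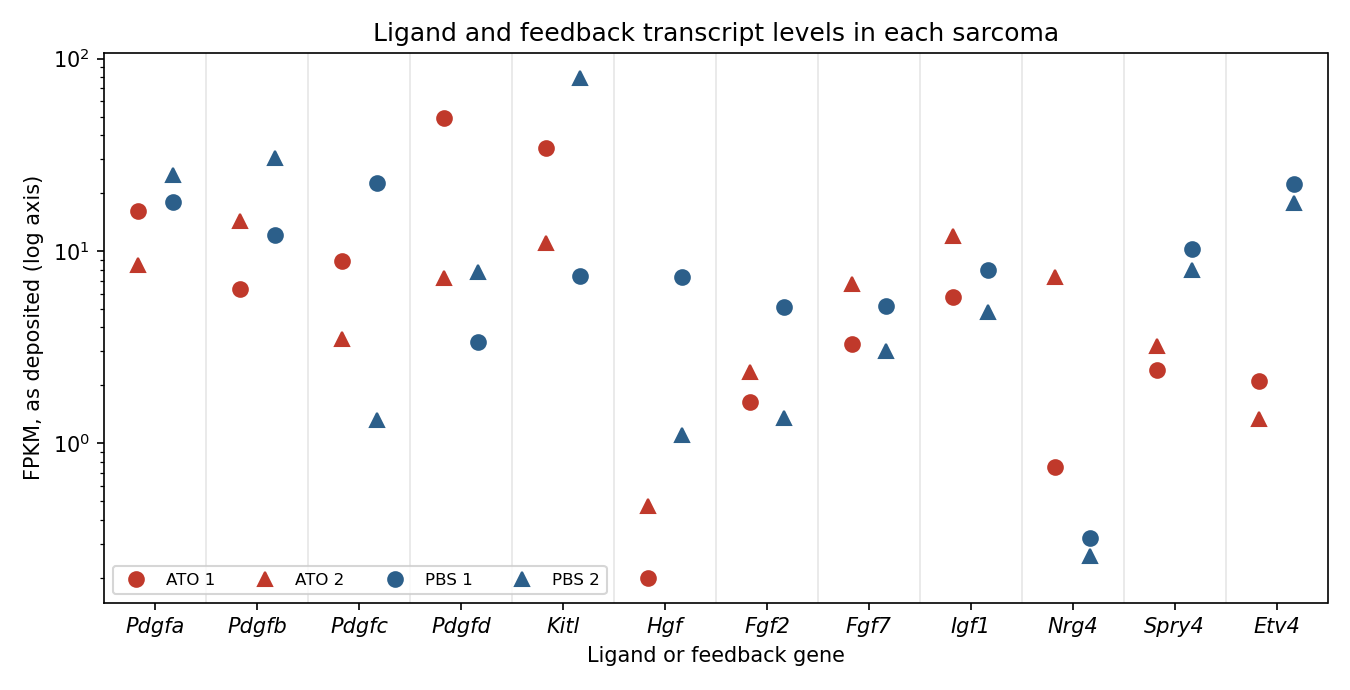
Deposited FPKM on a log axis of ligands of the receptors and of the feedback genes Spry4 and Etv4, with 1 point for each sarcoma, ATO in red and PBS in blue, circles for replicate 1 and triangles for replicate 2. Kitl and Hgf have their highest points in PBS 2 and PBS 1, Pdgfd in ATO 1 and Nrg4 in ATO 2, while Etv4 lies at 2.11 and 1.33 in ATO 1 and ATO 2 against 22.2 and 17.7 in PBS 1 and PBS 2.

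Of the 18 adaptors and first relays behind the receptors, all 18 were tested. Of these, 0 had an unadjusted edgeR p under 0.05, against 8.51% of all genes. Their median log2 fold change was 0.07. In TMM-scaled CPM both ATO sarcomas lay above both PBS sarcomas for 6 of the 18 and below for 1, against 19.7% and 20.2% of all genes, while in FPKM it was 1 above and 3 below, against 12.8% and 29.6%. By mean FPKM the leading ones were Grb2, Crk, Shc1 and Plcg1. Grb2, which links receptors to Ras, was between 35.4 and 54.4 FPKM in the 4 sarcomas, and Crk, another adaptor, between 24.3 and 62.4. Shc1, a docking protein, was at 78.6 FPKM in PBS 1 and between 16.2 and 24.4 in the others. Plcg1, a phospholipase that receptors activate, was at 19.2, 10.3, 27.7 and 37.8 FPKM, and was the 1 adaptor below in both scales. Within groups, the median absolute log2 ratio over the adaptors was 0.54 between the PBS and 0.42 between the ATO sarcomas in TMM-scaled CPM, against 1.56 and 0.90 over the receptors.

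Of the 14 receptor brakes, 12 were tested, and 1 was higher and 1 lower in ATO sarcomas at an unadjusted edgeR p under 0.05, against 5.44% and 3.07% of all genes. Grb10, an adaptor that dampens signals of Igf1r and the insulin receptor, had an FPKM of 9.57 in ATO 1, 7.04 in ATO 2, 37.3 in PBS 1 and 29.7 in PBS 2. The groups were far apart for it, whereas those of Igf1r overlapped, and its edgeR log2 fold change was -1.75 (SE 0.42, unadjusted p = 0.0103, adjusted p = 0.570). Its relative Grb14 went the other way, at 1.07, 2.71, 0.52 and 0.15 FPKM (edgeR log2 fold change 2.84, SE 1.00, adjusted p = 0.570). Errfi1, an inhibitor of Egfr and Erbb2, was at 14.6 FPKM in ATO 2 and between 56.9 and 61.5 in the others, so it was low where Erbb2 was low. Socs3, a feedback inhibitor of cytokine signals, was at 8.93, 54.4, 23.6 and 62.1 FPKM, and Ptpn1, a phosphatase of receptors, between 18.8 and 40.8.

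Of the 14 ERK feedback genes, all 14 were tested, and 13 had a log2 fold change below 0, against 8738 of all 17188 genes (50.8%). At an unadjusted edgeR p under 0.05, 2 were lower and 0 higher in ATO sarcomas, against 3.07% and 5.44% of all genes. Like the other lists, this one was chosen with earlier results of these data known, and its direction was not tested. The median log2 fold change of the list was -0.66, and for 5 of the 14 both ATO sarcomas lay below both PBS sarcomas in TMM-scaled CPM, against 20.2% of all genes. In FPKM that held for 8 of the 14, against 29.6% of all genes. Etv4, a transcription factor that FGF signals induce, had an FPKM of 2.11 in ATO 1, 1.33 in ATO 2, 22.2 in PBS 1 and 17.7 in PBS 2. Replicates were close and groups far apart, with an edgeR log2 fold change of -3.28 (SE 0.44, unadjusted p = 0.000937, adjusted p = 0.570). Spry4, an inhibitor of receptor signals to ERK, was at 2.40, 3.20, 10.2 and 7.96 FPKM (edgeR log2 fold change -1.40, SE 0.47, adjusted p = 0.570). For Etv4 and Spry4, as for Fgfr1 and Pdgfrb, both ATO sarcomas were the low ones, and both were the high ones for all skeletal muscle and adipocyte markers of the lists. Of the others with the highest mean FPKM, Dusp6, an ERK phosphatase, was at 21.5, 28.7, 25.4 and 51.6, Spred1 between 10.8 and 39.7, highest in PBS 1, and Spry1, the 1 gene with a log2 fold change above 0, at 24.7, 6.13, 18.3 and 7.47.

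Markers of cell types differed between the sarcomas along with several receptors, and their part in the results was not tested. The labelled tissue is sarcoma, and mesenchymal markers were high throughout, with a summed TMM-scaled CPM over 6 genes of 38277 in ATO 1, 15303 in ATO 2, 44749 in PBS 1 and 14783 in PBS 2, and with 0 genes at 0. The most abundant were Col1a2, Col3a1, Col1a1 and Sparc in that order of sarcomas. Col1a1 and Col1a2 set these sums in ATO 1, at 15779 and 16364 CPM, whereas Vim, Col3a1 and Fn1 were lowest there. Col1a1 and Col1a2 were higher in ATO 1 and PBS 1 than in ATO 2 and PBS 2, as Pdgfra was. For Vim, at 617, 1578, 2533 and 3486 CPM, and Sparc, at 3719, 2290, 5982 and 4744, both ATO sarcomas were below both PBS sarcomas, as for Pdgfrb and Fgfr1, and Sparc had the same order of sarcomas as these receptors. That was 2 of the 6 markers in CPM, against 20.2% of all genes, and 3 in FPKM, with Fn1 added, against 29.6%.

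For Kit and Kitl, highest in PBS 2, the 6 endothelial markers summed to 487 CPM in ATO 1, 1120 in ATO 2, 574 in PBS 1 and 4578 in PBS 2, scaled by TMM. Pecam1 led in all but PBS 1, where Cdh5 did, none was at 0, and Tek and Tie1 are receptor tyrosine kinases themselves. PBS 2 was the highest for these markers, as it was for Kit. The 7 mast cell markers summed to 42.7, 171, 3.21 and 189 CPM, with 0 genes at 0, led by Tpsb2 in ATO 1 and by Hdc elsewhere. Hdc made up most of the sum in PBS 2, with 176 CPM. Without it the other 6 summed to 35.6, 67.1, 1.58 and 12.9 CPM. Both ATO sarcomas lay above both PBS sarcomas for 6 of the 7 in CPM, against 19.7% of all genes, and for 4 in FPKM, against 12.8%. Hdc, the exception in CPM, was highest in PBS 2, as Kit was. PBS 1 was the lowest for the mast cell sum with and without Hdc, as it was for Kit, whereas ATO 1 was the lowest for the endothelial sum. Melanocytes, another cell type with Kit, left little trace: their 4 markers summed to at most 2.32 CPM, and Dct and Tyr had 0 counts in all 4 sarcomas.

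For Pdgfrb, the 7 pericyte markers summed to 528 CPM in ATO 1, 717 in ATO 2, 500 in PBS 1 and 2325 in PBS 2, scaled by TMM, with 0 genes at 0. Abcc9 was most abundant in ATO 1, Mcam in PBS 1 and Rgs5 in the others. They were highest in PBS 2, while Pdgfrb was highest in PBS 1. The 5 smooth muscle markers summed to 1872, 746, 540 and 239 CPM, led by Des in ATO 1, which skeletal muscle also expresses, and by Acta2 in the others. Without Des the other 4 summed to 56.0, 577, 528 and 158 CPM, so that ATO 1 was the lowest. The 7 fibroblast markers, led by Dcn except in PBS 2, where Cd34 led, summed to 642, 2562, 1015 and 1340 CPM. Single markers differed from these sums. Thy1, of the fibroblast list, was at 10.9 and 126 CPM in ATO 1 and ATO 2 and at 314 and 273 in PBS 1 and PBS 2, so that both ATO sarcomas were below both PBS sarcomas, as for Pdgfrb and Fgfr1. That held for 1 of the 7 fibroblast markers in CPM, against 20.2% of all genes, and for 2 in FPKM, with Cd34 added, against 29.6%, while Dcn and Col14a1 were above on both scales. Of the pericyte markers 0 of 7 were below in CPM and 3 in FPKM (Kcnj8, Mcam and Higd1b), and of the smooth muscle markers 0 of 5 were below on either scale.

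For Fgfr2, high in ATO 1, the 6 osteoblast markers summed to 4168 CPM in ATO 1, 1780 in ATO 2, 942 in PBS 1 and 188 in PBS 2, scaled by TMM, led by Spp1, which macrophages also express. Ibsp was at 599 CPM in ATO 1 and at most 0.721 elsewhere, and Sp7 at 137 CPM in ATO 1, at 1.21 in PBS 2 and at 0 in ATO 2 and PBS 1. Bglap and Alpl were also far higher in ATO 1, but Runx2 was at 115 CPM in ATO 1, 10.9 in ATO 2, 82.7 in PBS 1 and 23.3 in PBS 2. ATO 1 was thus the sarcoma with both the most Fgfr2 and the most of these transcripts.

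The 8 skeletal muscle markers summed to 38461 CPM in ATO 1, 2693 in ATO 2, 9.94 in PBS 1 and 272 in PBS 2, scaled by TMM, with Tnnc2 at 0 in PBS 1. They were led by Myh4 in ATO 1 and PBS 2, Acta1 in ATO 2 and Tnnt3 in PBS 1. All 8 were higher in both ATO sarcomas than in either PBS sarcoma, and Musk, Fgfr2 and Igf2 were, like them, highest in ATO 1. The 5 myoblast markers summed to 16.5, 2.40, 0 and 1.26 CPM, led by Myog in ATO 1 and PBS 2 and by Myod1 in ATO 2, and all 5 were at 0 counts in PBS 1, where Fgfr4 was as high as in ATO 1.

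The 5 adipocyte markers, led by Fabp4 in all 4, summed to 834 CPM in ATO 1, 5992 in ATO 2, 52.2 in PBS 1 and 269 in PBS 2, scaled by TMM. Lep had 0 counts in both PBS sarcomas and Plin1 in PBS 1, and all 5 markers were higher in both ATO sarcomas than in either PBS sarcoma. Nrg4, Klb, Ntrk2 and Grb14 were highest in ATO 2 as well. The 6 leukocyte markers, one of which is the kinase Csf1r, summed to 765, 1238, 761 and 662 CPM and were led by Csf1r except in PBS 2, where Ptprc led. The 6 epithelial markers summed to 9.39, 51.2, 2.58 and 13.6 CPM, and the 4 Schwann cell markers to 8.08, 59.9, 2.00 and 9.98, both highest in ATO 2, as was Met.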

How the data were processed

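Bulk RNA-seq of 4 sarcomas was used, 2 labelled ATO and 2 labelled PBS, with no batch named in the labels. Per the labels and the study's methods, reads were checked with FastQC 0.10.1, trimmed with cutadapt 1.9.1 and aligned with HISAT2 2.0.1 to GRCm38, and HTSeq counted reads per gene. The authors deposited these counts with FPKM, which equal the count over exonic length and total count to within 0.005. Whether counting used strand is not given in the sources used here.

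Gene positions printed here come from the GENCODE M21 annotation of GRCm38, matched by gene ID. The positions in the table differ from it for most genes (2.83% of 52073 shared IDs were identical), so they served only to order neighbours. In M21, exons of Pdgfra share 456 bases with the antisense gene Gm42802 (0 counts) and 166 with Gm42803 on the other strand (at most 11 counts). They also share 30 with Mir7025 on the same strand (at most 3 counts). Exons of Fgfr1 share 164 bases with the antisense gene Gm16159 (at most 21 counts), those of Erbb2 9 with Mien1, and those of Fgfr2 314 with Ctbp2 on the same strand (318 to 717 counts). Reads there could not be told apart with certainty.

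The counts were fitted with edgeR 4.0.16 (filterByExpr, TMM, glmQLFit and glmQLFTest, two-sided, ATO against PBS, no covariate) in R 4.3.3, with Benjamini-Hochberg adjustment over all genes tested and a threshold of 0.05. The SE was taken from the log2 fold change and its F statistic. The biological coefficient of variation was 62.5%. Code was tested on simulated data. The alternatives used DESeq2 1.42.0, limma 3.58.1, other filters and scalings, a replicate block and each sarcoma left out in turn. Tables and plots were made with Python 3.11.15.

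All receptors are named. Of 13 pathway lists, counting the receptors as 1, the genes named are the 4 with the highest mean FPKM, those with an unadjusted p under 0.05 and single ligands. The rule also took the 3 tested neighbours on each side of a receptor, which are given as counts and medians, and only those with an unadjusted p under 0.05 are named by it. The other neighbours named, Insr, Kdr, Fgf23, the leading kinases of single sarcomas and markers other than the leading ones were chosen after their values were seen. There were also 14 marker lists. Members and lists were chosen with earlier results of these data known. Nothing says how the sarcomas relate to each other, so p-values measure the spread between these samples only. A count of 0 allows up to 3 counts, which was 0.151 to 0.240 CPM here, and covers counting error only.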

Additional observations from a re-analysis of the deposited data

How the results depend on the processing

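In every alternative run, 0 of the receptors tested passed the adjusted threshold, with adjusted p-values from 0.195 (Fgfr2) upward over edgeR, DESeq2 and limma. Genes past the threshold went from 0 in edgeR to 716 with DESeq2 (559 higher, 157 lower in ATO) and to 541 in edgeR with no filter on low counts (454 and 87); DESeq2 on all genes with a count, chosen after seeing the data, gave 753. The cause was not tested. The other alternatives gave 0. Receptors with an unadjusted p under 0.05 went from 0 to 2 with either form of DESeq2 (Pdgfrb and Fgfr2), to 2 with no filter (Fgfr1 and Fgfr2), to 1 in each limma fit on log2(FPKM + 1) and log2(FPKM + 0.1) (Pdgfrb), and to between 0 and 1 with a sarcoma left out (Kit without PBS 2). Pdgfrb and Fgfr1 stayed below 0 in all 13 alternatives, and both had non-overlapping groups under each of the 3 other scalings, among them deposited FPKM, where 29.6% of all genes tested had both ATO sarcomas below and 12.8% above.

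With a sarcoma left out, a fit in which the lone sarcoma of a group is assumed to vary like the other group, the median log2 fold change of the receptors was between -0.61 and -0.082, that of Pdgfra between -2.13 and 1.94, Kit -0.94 and 2.48, Met -0.70 and 0.97, Egfr -0.87 and 0.93, Erbb2 -0.97 and 0.37, Fgfr2 -0.28 and 5.54, Fgfr4 -0.71 and 2.02, and Igf1r -0.50 and 0.45. In limma with a pseudocount of 1 and then 0.1, direction turned for Kit (0.33 and 0.48), Met (-0.057 and -0.098) and Igf1r (-0.19 and -0.25), where the median over all genes was -0.23 and -0.28, and that of the receptors -0.26 and -0.29. Fgfr4 has no value in fits that need a mean FPKM of 1.

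The samples share replicate numbers but the labels do not pair them, and deviations of same-numbered sarcomas correlated at -0.0205 over genes. The replicate block gave 0 genes past the threshold and 1 receptor with an unadjusted p under 0.05 (Fgfr2), and turned Kit to 0.77. With 2 sarcomas a group and a wide spread, intervals are broad, and an adjusted p that misses the threshold does not show equal levels. Fgfr4 is limited by its few counts.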

Other observations

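The 3 tested genes on each side of each receptor, by order on the chromosome, were looked at beside it. Over the 54 neighbours that are not receptors of the list, 32 were higher in ATO and 22 lower (median log2 fold change 0.11), and 5 had an unadjusted edgeR p under 0.05, against 8.51% of all genes tested. These 5 were all higher in ATO, against 5.44% of all genes in that direction and 3.07% in the other. They were Camk2a beside Pdgfrb, Tcap and Ormdl3 beside Erbb2, and Synm and Arrdc4 beside Igf1r. Pdgfrb lies next to Csf1r, which had 438 and 435 CPM in ATO 1 and ATO 2 and 404 and 174 in PBS 1 and PBS 2, scaled by TMM, so that on this scale it was above in both ATO sarcomas where Pdgfrb was below. In deposited FPKM the groups of Csf1r overlapped, at 76.1 and 61.7 in ATO 1 and ATO 2 against 76.2 and 33.3 in PBS 1 and PBS 2. Of 6 neighbours each, and counting Pdgfra and Kit as neighbours of each other, the number lower in ATO was 6 for Kit (median -1.01 on the log2 scale), 5 for Pdgfra (-0.65), 4 for Egfr (-0.38) and Fgfr4 (-0.14), 3 for Fgfr2 (0.02), 2 for Met (0.21) and Fgfr1 (0.45), 1 for Pdgfrb (0.44) and Igf1r (0.58), and 0 for Erbb2 (0.31). Gm42577, Chic2, Gm19590 and Kdr were counted for both Pdgfra and Kit, so those tallies are mostly of the same genes. Kit itself had a log2 fold change of -0.07, and its direction was reversed in 5 of 13 alternatives. By sign alone, neighbours ran with some receptors and against others, and this was not tested. Kdr, a kinase gene beyond Kit, was at 6.78, 16.0, 9.18 and 89.5 FPKM in ATO 1, ATO 2, PBS 1 and PBS 2, highest in PBS 2 as Kit was. By M21 positions, Ate1 and Nsmce4a lie within the span annotated for Fgfr2, which also takes in 314 exon bases shared with Ctbp2. Whether Fgfr2 transcripts in these sarcomas cover that whole span was not tested. Ate1 and Nsmce4a were between 6.97 and 11.9 FPKM in all 4 sarcomas, whereas Fgfr2 went from 0.22 to 17.9.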
